A study of Mus musculus with 21 samples.

Results

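The genes described here encode the cytoplasmic intermediate filament proteins desmin (Des), vimentin (Vim), synemin (Synm) and nestin (Nes), the nuclear lamins (Lmna, Lmnb1, Lmnb2) and the actin cross-linker filamin C (Flnc). They were chosen by symbol, and all 8 were found among the 24054 rows of the deposited table and passed the filter on low counts. Expression was measured by sequencing, labelled mRNA-seq, that started from total RNA of left ventricular myocardium of 21 C57BL/6J mice. In 16 of them the aorta had been narrowed by transverse aortic constriction (TAC), so that the left ventricle worked against raised pressure. Of these, 6 received the PDE9A inhibitor PF-04449613 (TAC+PDE9A-I), 5 received the PDE5A inhibitor sildenafil (TAC+PDE5A-I) and 5 received no drug (TAC). The remaining 5 had sham surgery and no drug (sham). Drug treatment began 1 week after surgery and lasted 4 weeks. Both enzymes break down cyclic GMP, and the series title gives the model as heart failure induced by pressure overload. The sources used here do not give the doses, a vehicle, or the age and sex of the animals.

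Intermediate filaments are rope-like polymers that carry tension through a cell. In heart muscle desmin links neighbouring Z-discs to each other, to the desmosomes of the intercalated disc, to the costameres under the cell membrane and to the nucleus, with synemin as a partner that does not form filaments by itself. Vimentin is the main intermediate filament of fibroblasts and endothelial cells, and nestin is best known from progenitor and vascular cells. Lamins are the intermediate filaments of the nucleus and line its inner membrane, and mutations of human DES, LMNA and FLNC cause cardiomyopathy.

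Levels are counts per M (CPM) after scaling between libraries by TMM, a method that assumes that most genes do not change. Log2 fold changes and adjusted p-values come from edgeR's quasi-likelihood test over 14135 genes with Benjamini-Hochberg adjustment, with calls made at a threshold of 0.05. Only called genes are said to have risen or fallen. Each animal gave 1 library, and libraries held between 22.7 and 41.0 M counts. Of the heart muscle markers, Myh6 lay between 28200 and 47900 CPM in TAC+PDE9A-I libraries, between 21700 and 35700 in TAC+PDE5A-I, between 16700 and 38200 in TAC and between 42300 and 48800 in sham, so that TAC and sham did not overlap. Ttn lay between 82500 and 113000 CPM in TAC+PDE9A-I libraries, between 77200 and 102000 in TAC+PDE5A-I, between 76400 and 99600 in TAC and between 88500 and 112000 in sham, with overlap, and 5 of 12 such markers fell in TAC against sham. Ribosomal Rn45s took 0.326% of the counts in TAC+PDE9A-I library 1 and 0.416% in library 4, against 0.192 to 0.278% in the other 19 libraries. The animals' ear tags fall into number series 100, 500 and 600, which are spread unevenly over the groups. Series 500 holds 4 TAC+PDE9A-I, 2 TAC+PDE5A-I and 1 TAC library and no sham library.

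The promoters of the 4 genes called higher in TAC than in sham are shown first, since these genes rose together. Each sequence is the RefSeq window (GRCm38.p6) from 250 bases before to 50 bases after the annotated start, read along the gene's own strand. The windows are chr1:75360042-75360341 on the plus strand for Des, chr2:13574061-13574360 on the plus strand for Vim, chr7:67759693-67759992 on the minus strand for Synm and chr3:88503303-88503602 on the minus strand for Lmna, where it is 1 of 2 annotated windows. Capitals mark matches to the E-box CANNTG and the AP-1 motif TGANTCA.
Des: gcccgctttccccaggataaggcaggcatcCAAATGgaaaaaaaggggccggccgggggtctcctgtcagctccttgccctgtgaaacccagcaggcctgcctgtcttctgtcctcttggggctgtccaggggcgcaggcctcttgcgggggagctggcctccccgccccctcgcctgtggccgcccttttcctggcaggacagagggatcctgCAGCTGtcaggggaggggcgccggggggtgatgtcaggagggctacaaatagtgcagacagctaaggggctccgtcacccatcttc
Vim: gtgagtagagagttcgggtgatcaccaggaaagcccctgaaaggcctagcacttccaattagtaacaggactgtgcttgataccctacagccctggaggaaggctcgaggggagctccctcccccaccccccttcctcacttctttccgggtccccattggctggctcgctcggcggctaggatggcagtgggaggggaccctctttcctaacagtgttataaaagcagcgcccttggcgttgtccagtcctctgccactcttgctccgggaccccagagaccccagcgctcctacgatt
Synm: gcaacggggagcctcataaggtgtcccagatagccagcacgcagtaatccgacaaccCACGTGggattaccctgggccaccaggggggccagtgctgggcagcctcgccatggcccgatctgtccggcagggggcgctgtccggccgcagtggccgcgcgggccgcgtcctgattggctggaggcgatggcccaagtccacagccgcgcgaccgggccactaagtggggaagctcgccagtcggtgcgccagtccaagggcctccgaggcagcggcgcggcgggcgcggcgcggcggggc
Lmna: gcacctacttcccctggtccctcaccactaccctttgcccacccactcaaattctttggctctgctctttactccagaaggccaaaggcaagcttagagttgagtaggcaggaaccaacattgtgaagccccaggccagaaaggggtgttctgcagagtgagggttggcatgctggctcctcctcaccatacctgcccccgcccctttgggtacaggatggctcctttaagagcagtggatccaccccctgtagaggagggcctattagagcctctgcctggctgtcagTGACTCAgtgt
Both strands were searched, and these motifs do not overlap each other here. Des held E-box matches whose first bases lie at -220 and -36 from the start, Synm held 1 at -193, Lmna held an AP-1 match at 40, and Vim held neither motif. Of 32851 mouse promoter windows of the same length, 72.3% held an E-box match and 7.81% an AP-1 match. No match to the CArG box bound by serum response factor or to the MEF2 site was found in these windows, nor in those of Nes, Lmnb2 and Flnc, against 1.63% and 3.19% of all windows. Such letters describe the window only.

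Desmin and synemin were the members whose TAC and sham libraries did not overlap. Des (ENSMUSG00000026208.9, chr1:75360329-75368579, mm10, plus strand) had 1866, 2066 and 3713 CPM as its lowest, median and highest values in TAC+PDE9A-I hearts. It had 2059, 1893, 2956, 2794 and 2359 CPM in TAC+PDE5A-I libraries 1 to 5, 2843, 2404, 3502, 4376 and 2108 CPM in TAC libraries 1 to 5, and 1774, 1751, 1850, 1904 and 1677 CPM in sham libraries 1 to 5. All TAC libraries lay above all sham libraries, while TAC+PDE9A-I and TAC+PDE5A-I overlapped both TAC and sham. Averages were 3047 ± 910 CPM in TAC and 1791 ± 88.6 CPM in sham (SD, n = 5 each), and Des rose 1.70-fold in TAC (log2 fold change 0.77, SE 0.20, adjusted p = 0.0105). An antisense gene, Gm15179, overlaps Des on the opposite strand and is listed separately. The kit marks strand, but the sources used here do not give the strand setting of the counting.

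Synm (ENSMUSG00000030554.16, chr7:67730160-67759742, minus strand) had 20.8, 24.1 and 34.8 CPM as lowest, median and highest in TAC+PDE9A-I. It had 26.3, 21.6, 29.9, 28.1 and 29.2 CPM in TAC+PDE5A-I, 26.8, 20.3, 30.2, 33.9 and 23.5 CPM in TAC, and 17.1, 19.9, 18.2, 18.2 and 17.3 CPM in sham. Every one of the 16 libraries from constricted hearts exceeded every sham library, a pattern shown by 0.856% of all genes tested. Synm rose 1.49-fold in TAC over sham (log2 fold change 0.57, SE 0.14, adjusted p = 0.00795). The protein-coding gene Ttc23 overlaps it on the opposite strand.

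Vim (ENSMUSG00000026728.9, chr2:13573927-13582826, plus strand) had 167, 239 and 379 CPM as lowest, median and highest in TAC+PDE9A-I. It had 297, 221, 296, 421 and 273 CPM in TAC+PDE5A-I, 343, 199, 429.9, 516 and 259 CPM in TAC, and 171, 242, 192, 138 and 238 CPM in sham. TAC library 2 lay inside the sham range and the other 4 TAC libraries lay above it. Vim rose 1.78-fold in TAC over sham (log2 fold change 0.83, SE 0.26, adjusted p = 0.0280), but this call was lost under several alternatives. Without sham library 1, 3 or 4 its adjusted p was 0.0649, 0.0523 or 0.0745, and without TAC library 3 or 4 it was 0.0710 or 0.101 by edgeR's test, with log2 fold changes between 0.66 and 0.83. With ear tag series in the model it was 0.0632 (log2 fold change 0.77).

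Lmna (ENSMUSG00000028063.15, chr3:88480147-88509956, minus strand), whose transcripts give lamins A and C, had 122, 138 and 175 CPM as lowest, median and highest in TAC+PDE9A-I. It had 139.7, 121, 164, 184 and 153 CPM in TAC+PDE5A-I, 169, 128, 198, 229 and 152 CPM in TAC, and 123, 133, 129, 109 and 119.5 CPM in sham. TAC library 2 again lay within the sham range, and the other TAC libraries were above it. Lmna rose 1.43-fold in TAC over sham (log2 fold change 0.51, SE 0.14, adjusted p = 0.0125). Counts per gene do not separate lamin A from lamin C.

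The other members did not pass the test in TAC against sham. Nes (ENSMUSG00000004891.16, chr3:87971078-87980451, plus strand) had 50.1, 69.4 and 100.1 CPM as lowest, median and highest in TAC+PDE9A-I. It had 75.8, 94.1, 82.9, 114.5 and 77.2 CPM in TAC+PDE5A-I, 95.3, 52.7, 104, 124.5 and 69.7 CPM in TAC, and 59.0, 66.6, 58.2, 54.6 and 80.6 CPM in sham. TAC library 2 was below every sham library and 3 TAC libraries were above every sham library. The log2 fold change was 0.49 (SE 0.21, adjusted p = 0.0839), and without TAC library 2 it was 0.63 (adjusted p = 0.0180).

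Flnc (ENSMUSG00000068699.12, chr6:29433256-29461883, plus strand), which anchors actin at the Z-disc and costamere, had 955, 1071 and 1546 CPM as lowest, median and highest in TAC+PDE9A-I. It had 1160, 1002, 1740, 1347 and 1488 CPM in TAC+PDE5A-I, 1367, 828.9, 1424, 1857 and 978 CPM in TAC, and 1059, 1256, 1167, 1185 and 1050 CPM in sham. The TAC libraries spread to both sides of the sham range, with 3 above and 2 below it. The log2 fold change was 0.18 (95% interval -0.21 to 0.56, adjusted p = 0.502). It was 0.02 without TAC library 4 and 0.31 without TAC library 2 (adjusted p = 0.955 and 0.175).

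The B-type lamins were the lowest members. Lmnb1 (ENSMUSG00000024590.8, chr18:56707813-56753424, plus strand) averaged 4.29 ± 0.925 CPM in TAC+PDE9A-I (n = 6), 4.65 ± 0.663 in TAC+PDE5A-I, 4.22 ± 0.565 in TAC and 3.95 ± 0.427 in sham (SD, n = 5 each). Lmnb2 (ENSMUSG00000062075.13, chr10:80901203-80918245, minus strand) averaged 8.65 ± 1.12 CPM in TAC+PDE9A-I, 9.35 ± 0.785 in TAC+PDE5A-I, 8.83 ± 1.63 in TAC and 8.67 ± 0.217 in sham. TAC and sham overlapped for both genes, with log2 fold changes of 0.097 for Lmnb1 (95% interval -0.21 to 0.40, adjusted p = 0.650) and 0.030 for Lmnb2 (95% interval -0.20 to 0.26, adjusted p = 0.867).

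**Figure D1:**
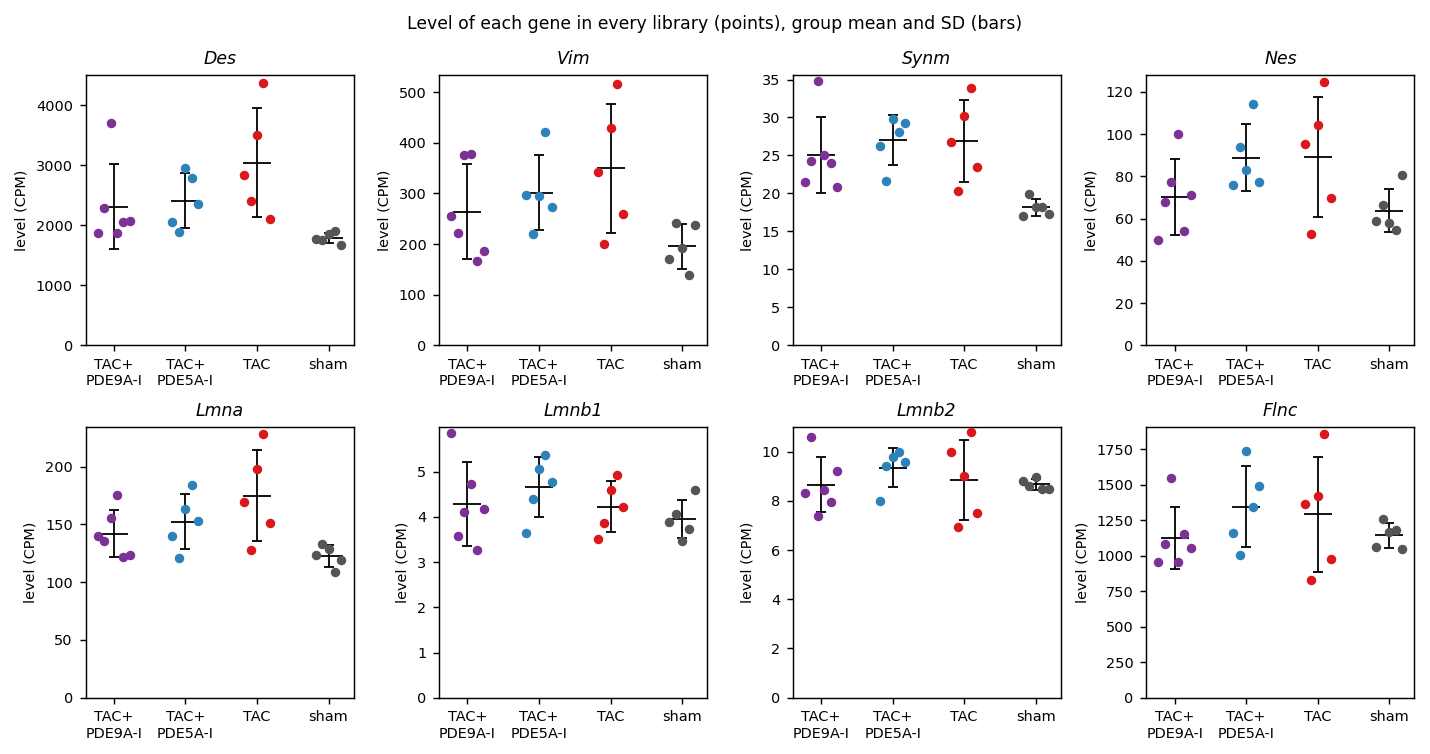
Level of each gene in CPM (y axis, from 0) in every library (points) of TAC+PDE9A-I, TAC+PDE5A-I, TAC and sham hearts, with the group mean and SD (bars). Every Synm point of the constricted groups lies above the sham points, whereas Vim, Nes, Lmna, Flnc, Lmnb1 and Lmnb2 overlap sham in each group.

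In all, 4 of the 8 genes rose in TAC against sham and none fell, where 12.2% of all genes tested were called higher and 13.0% lower. The members' median log2 fold change was 0.50, beside a median of -0.0013 over all genes. Groups did not overlap for Des and Synm, as for 8.52% of all genes with TAC higher. Within ear tag series 100 (2 TAC, 3 sham) and 600 (2 TAC, 2 sham), the log2 difference of means was 0.55 and 0.77 for Des, 0.34 and 0.66 for Synm, 0.39 and 1.01 for Vim, and 0.20 and 0.71 for Lmna. For Nes it was 0.21 and 0.49, and for Flnc -0.12 and 0.27.

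Relative to TAC, none of the 8 genes was called in either inhibitor group by edgeR's test or by DESeq2. In TAC+PDE9A-I over TAC, 0.00707% of all genes were called. Des had a log2 fold change of -0.40 (SE 0.19, 95% interval -0.79 to -0.01, unadjusted p = 0.0449, adjusted p = 0.336) and Lmna one of -0.30 (SE 0.13, 95% interval -0.57 to -0.03, unadjusted p = 0.0306, adjusted p = 0.304). Leaving out TAC library 4 gave -0.23 for Des and -0.19 for Lmna, and the largest differences were -0.59 for Des, without TAC+PDE9A-I library 3, and -0.39 for Lmna, without TAC library 2. These were the 2 members with an unadjusted p under 0.05, which 2061 of the 14135 genes tested also had in this comparison. For Des 4 of 6 TAC+PDE9A-I libraries lay below every TAC library, and for Lmna 2 of 6. These library counts were not taken over all genes. Within ear tag series 100, 500 and 600 the log2 difference for Des was -0.48 (1 TAC+PDE9A-I and 2 TAC libraries), -0.55 (4 and 1) and -0.55 (1 and 2), and for Lmna -0.07, -0.44 and -0.59. Vim was at -0.40, Nes at -0.35, Flnc at -0.20, Synm at -0.10, Lmnb2 at -0.03 and Lmnb1 at 0.02 on the log2 scale.

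In TAC+PDE5A-I over TAC, 0.0141% of all genes were called and none of the members had an unadjusted p under 0.05. Des was at -0.34 (95% interval -0.74 to 0.07), Vim at -0.21 and Lmna at -0.20 (95% interval -0.48 to 0.08), and the other 5 lay between -0.01 and 0.14, with a lowest adjusted p of 0.962. For Des the log2 difference was -0.83 within series 500 (2 TAC+PDE5A-I and 1 TAC libraries) and -0.17 within series 600 (3 and 2). Both contrasts use the same TAC libraries, which are also the upper side of TAC against sham.

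Set directly against each other, TAC+PDE9A-I and TAC+PDE5A-I hearts gave no call among the 8 genes, and 0.00707% of all genes were called. All 8 log2 fold changes were negative, from -0.06 for Des (95% interval -0.45 to 0.33) to -0.34 for Nes (95% interval -0.75 to 0.07, adjusted p = 0.568). Levels of many of these genes are correlated over the libraries, so the 8 signs are not separate results. With single libraries left out, Des ranged from -0.25 to 0.02. For Nes, 4 of 6 TAC+PDE9A-I libraries lay below every TAC+PDE5A-I library, a count that was not taken over all genes. Without the doses, the 2 drugs could not be matched for dose.

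**Figure D2:**
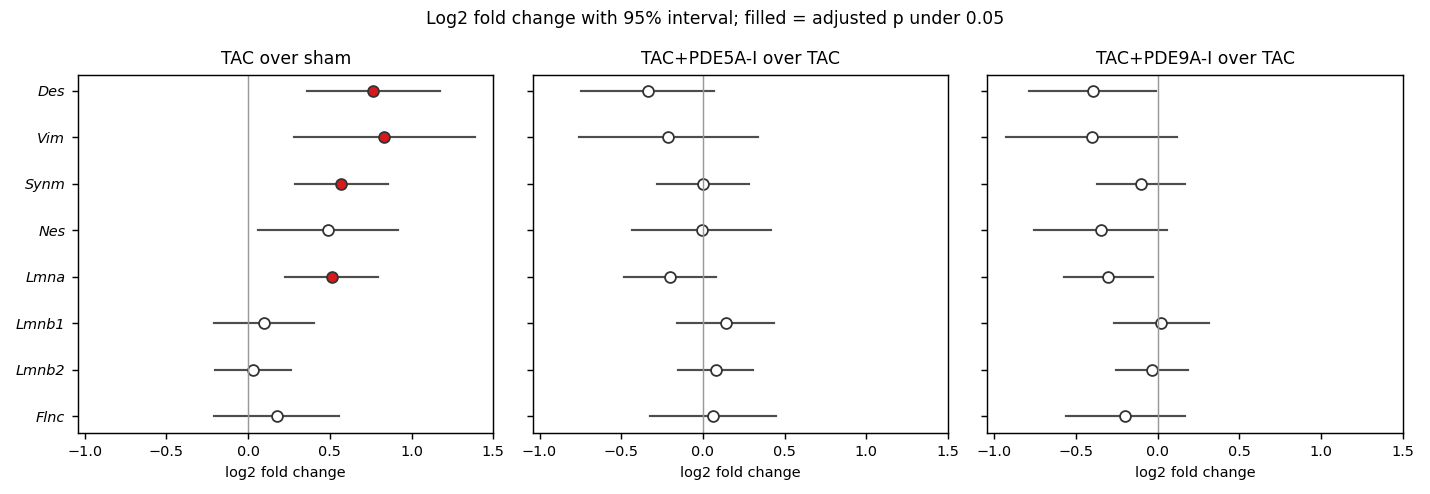
Log2 fold change (x axis) of each gene in TAC over sham, TAC+PDE5A-I over TAC and TAC+PDE9A-I over TAC, with 95% intervals (lines); filled points passed an adjusted p of 0.05. Des, Vim, Synm and Lmna are filled in TAC over sham, and no point is filled under either drug.

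Against sham, Synm alone was called in TAC+PDE5A-I (log2 fold change 0.57, SE 0.14, adjusted p = 0.0131), where 6.81% of all genes were called higher. With ear tag series in the model this call was lost (0.46, adjusted p = 0.116), and 276 of 14135 genes were called. Within series 600 (3 TAC+PDE5A-I and 2 sham libraries) the log2 difference for Synm was 0.705. When only TAC+PDE5A-I and sham were fitted Des, Vim, Nes and Lmna were called as well, and 3440 of 13881 genes tested were called. In TAC+PDE9A-I over sham no member was called, and 2.17% of all genes were called higher. Synm was at 0.47 (SE 0.13) with an adjusted p of 0.0501, and between 0.0226 and 0.119 when single libraries were left out. TAC+PDE5A-I and TAC+PDE9A-I each lay wholly above sham for Synm, as did 6.81% of all genes in TAC+PDE5A-I and 1.61% in TAC+PDE9A-I. Des exceeded every sham library in 13 of the 16 constricted hearts, Lmna in 12, Vim in 11, Lmnb2 in 9, Nes and Flnc in 7 each and Lmnb1 in 6. Some libraries lay below every sham library, given for TAC, TAC+PDE5A-I and TAC+PDE9A-I in turn. These were 2, 1 and 4 for Lmnb2 and 2, 1 and 2 for Flnc. For Nes they were 1, 0 and 2, and for Lmnb1 0, 0 and 1. These counts were not taken over all genes.

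The same hearts were high for several members. TAC library 4 held the highest TAC value of all 8 genes and TAC library 2 the lowest of 6. TAC+PDE9A-I library 3 was highest in its group for Des, Synm and Flnc, while library 4 was highest for Vim, Nes and Lmna and lowest for Des. Postn, a matrix gene of activated fibroblasts, had 952, 279, 2187, 2812 and 497.5 CPM in TAC libraries 1 to 5, with its highest and lowest values in the same libraries 4 and 2. Myh7, the slow myosin heavy chain that marks overload in mouse ventricle, had 6046, 2783, 8670, 7648 and 3577 CPM there.

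**Figure D3:**
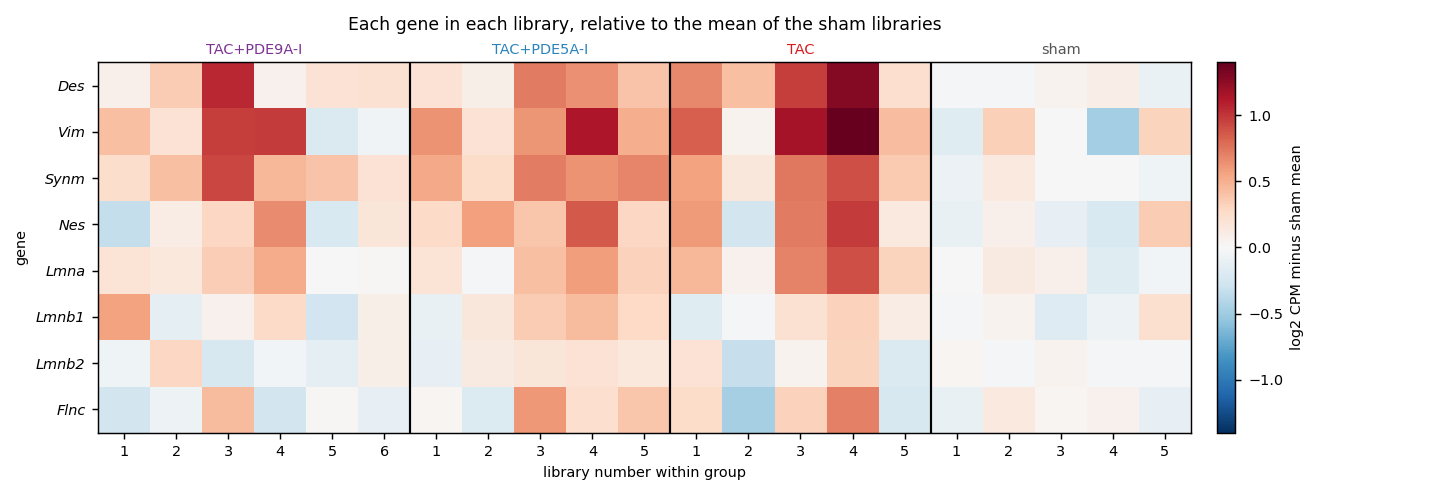
Log2 CPM of each gene (rows) in each library (columns, by group) minus the mean of the sham libraries (color scale). TAC libraries 3 and 4 and TAC+PDE9A-I library 3 are red for Des, Vim and Synm, and Lmnb1 and Lmnb2 are pale in most libraries.

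Over the 21 libraries, Pearson's r of log2 CPM was 0.937 for Vim and Lmna (Spearman's rho 0.922) and 0.86 for Des and Synm (rho 0.84). For r, both had a two-sided permutation p of 1e-05, the smallest that 100000 permutations can give. After Benjamini-Hochberg adjustment over the 28 pairs it was 7e-05, and for rho the permutation p was 1e-05 and 2e-05. Libraries were permuted across the groups, so each p also takes in differences between groups. No p was computed with group means removed. Without the 2 libraries farthest from the median of the first gene, r was 0.912 and 0.796, and with group means removed it was 0.914 and 0.869. Des and Flnc (r = 0.747, rho 0.591, permutation p = 0.00015 and 0.00581) reached 0.889 with group means removed and 0.598 without the 2 farthest libraries. Of the 28 pairs, 19 had an adjusted permutation p of r under 0.05, and Lmnb1 was in 2 of them, with Vim and with Lmna. For rho the adjusted permutation p was 0.0512 for Lmna and Lmnb1 and 0.0498 for Nes and Lmnb1. The share among pairs of other genes was not counted. With Postn, r of the members lay between 0.275 for Lmnb2 and 0.929 for Synm.

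Among other genes, those whose log2 CPM was most like each member's over the 21 libraries were Xirp2, Ipo4 and Tex264 for Des (r = 0.954, 0.945 and 0.935). For Vim they were Kctd11, Sorbs3 and Iqgap1 (0.968, 0.966 and 0.964), and for Lmna Kctd11, Tubb2b and Dap (0.963, 0.963 and 0.961). Ace, Tril and Tgfb2 were nearest to Synm (0.947, 0.941 and 0.934), and St6galnac4, Coro1c and Rin1 to Nes (0.919, 0.906 and 0.898). Flnc was nearest to Pold4, Galns and Fhl1 (0.881, 0.859 and 0.848), Lmnb1 to Hist1h2af, Ticrr and Rhog (0.811, 0.797 and 0.776) and Lmnb2 to Ndufa4l2, Ccnyl1 and Hyal2 (0.742, 0.723 and 0.715). With group means removed, these correlations lay between 0.701 and 0.96. They describe the top of a search through all genes tested and carry no p.

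Per kb of annotated exon, the order of levels was Des, Flnc, Vim, Lmna, Nes, Synm, Lmnb2 and Lmnb1 in every group. Des averaged 616 ± 187 CPM per kb in TAC+PDE9A-I, 643 ± 122 in TAC+PDE5A-I, 812 ± 242 in TAC and 477 ± 23.6 in sham (SD). Neighbours whose ranges overlapped were Flnc and Vim in TAC, and Lmnb2 and Lmnb1 in TAC and TAC+PDE9A-I. With the longest transcript as the length, Lmnb2 and Synm overlapped in every group and changed places in sham. Flnc and Vim then overlapped in TAC+PDE9A-I, TAC+PDE5A-I and TAC, and Lmnb2 and Lmnb1 no longer overlapped.

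The level of Des relative to Flnc was higher in every TAC heart than in every sham heart. The ratio of Des to Flnc, both per kb, was 4.48 to 6.02 in TAC+PDE9A-I, 3.97 to 5.20 in TAC+PDE5A-I, 5.21 to 7.26 in TAC and 3.49 to 4.19 in sham. TAC+PDE9A-I hearts were also all above the sham hearts. Lmna made up 85.6 to 89.5% of the summed lamin level per kb in TAC+PDE9A-I, 84.9 to 88.5% in TAC+PDE5A-I, 88.2 to 90.3% in TAC and 85.2 to 87.1% in sham. The ratio of Vim to Des overlapped between all groups, with its highest value, 0.161, in TAC+PDE9A-I library 4. These ratios were not tested, and how many other ratios separate TAC from sham was not counted. Des alone was also higher in every TAC heart than in every sham heart.

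**Figure D4:**
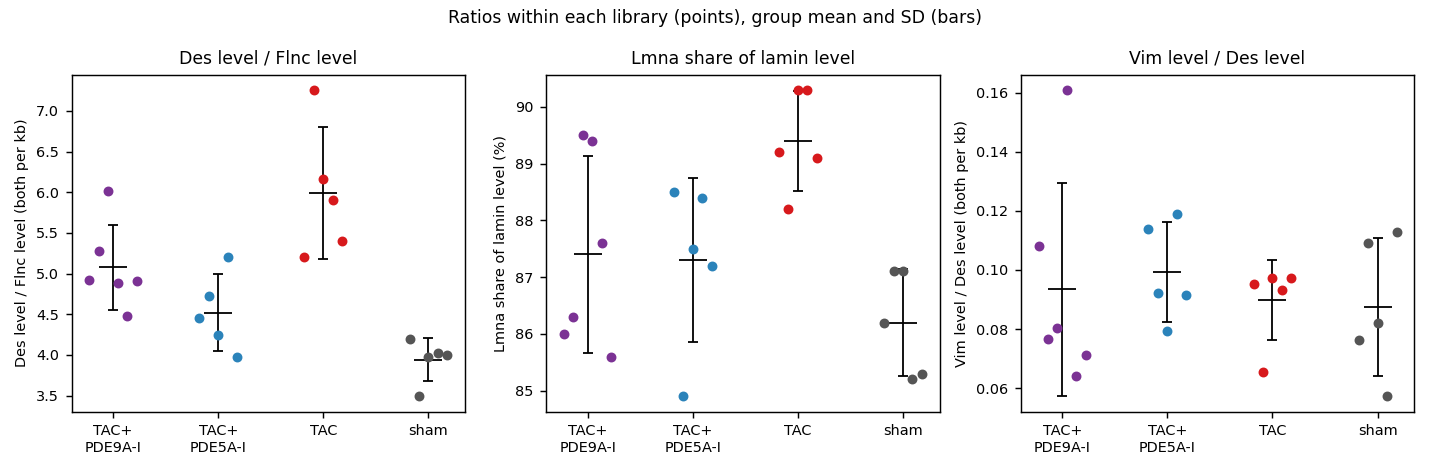
Ratio of Des to Flnc, share of Lmna in the summed lamin level (%) and ratio of Vim to Des, all from levels per kb, in each library (points) by group with mean and SD (bars). TAC hearts lie above sham hearts in the left and middle panels (5.21 to 7.26 in TAC against 3.49 to 4.19 in sham, and 88.2 to 90.3% in TAC against 85.2 to 87.1% in sham), and all groups overlap in the right panel.

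Markers of some cell types also differed between TAC and sham. Of 10 fibroblast markers 8 rose in TAC against sham, with sums of 4310 to 6960 CPM in TAC and 2560 to 3190 CPM in sham, and of 10 activated fibroblast markers 9 rose (839 to 5550 CPM in TAC, 222 to 330 CPM in sham). Of 12 cardiomyocyte markers 5 fell and none rose (sums of 126000 to 186000 CPM in TAC, 185000 to 218000 CPM in sham). Of 10 endothelial markers none was called (993 to 1230 CPM in TAC, 1060 to 1260 CPM in sham), nor of 10 cycling-cell markers (11.5 to 50.1 CPM in TAC, 21.5 to 54.5 CPM in sham), nor of 8 erythroid markers. Lists for smooth muscle and pericytes (2 higher, 1 lower of 10) and macrophages (1 higher, 1 lower of 9) gave mixed calls. Among Schwann cell markers 2 of 7 fell and 0 rose. Only 5 of 8 lymphocyte markers were tested, and 4 rose and 0 fell at low sums (3.21 to 5.15 CPM in TAC, 1.17 to 2.59 CPM in sham). Whether these lymphocyte markers would have passed the filter on low counts by the sham libraries alone was not checked. The part of these cell types in the changes of Vim, Lmna, Des and Synm was not tested. In bulk tissue fewer cells of a type and less RNA per cell cannot be told apart.

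Genes that build other filaments or bind these ones are set beside the 12.2% of all genes called higher and the 13.0% called lower in TAC against sham. Of 14 further intermediate filament genes 6 passed the filter on low counts, of which only Krt80 and Sync would have passed on the sham libraries alone, at a cutoff of 0.352 CPM. The calls were both of genes that passed through the constricted groups, where they are high, so that their number says nothing about the list: Krt18, a keratin of simple epithelia (3.79 ± 2.12 CPM in TAC, 0.325 ± 0.0569 in sham, log2 fold change 3.54, SE 0.72, adjusted p = 0.00402), and Bfsp1, a lens filament protein (0.640 ± 0.137 CPM in TAC, 0.329 ± 0.0157 in sham, log2 fold change 0.95, SE 0.28, adjusted p = 0.0185). Krt18 reached the cutoff in 5 TAC and 2 sham libraries and Bfsp1 in 5 TAC and 0 sham libraries. Krt7, Krt19, Gfap, Prph, Nefl, Nefm, Nefh and Ina were too low to test.

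Of 25 plakin, desmosome and costamere genes 5 rose and 6 fell in TAC against sham (median log2 fold change 0.02). The desmosomal cadherin Dsg2 fell (73.2 ± 17.4 CPM in TAC, 137 ± 17.1 in sham, log2 fold change -0.90, adjusted p = 0.00548), as did the plakin Ppl (3.49 ± 1.85 CPM in TAC, 11.9 ± 1.84 in sham, log2 fold change -1.79, adjusted p = 0.0141) and the adaptor Ank2 (-0.45, adjusted p = 0.00909). Plec and Dsp, the plakins that tie desmin to the Z-disc and the desmosome, were not called.

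Of 24 nuclear envelope and lamin-processing genes 2 rose and 2 fell (median -0.05), a smaller share in each direction than among all genes. The inner membrane protein Tmem43 rose (49.0 ± 8.32 CPM in TAC, 36.4 ± 2.68 in sham, log2 fold change 0.43, adjusted p = 0.0106) and Tor1aip2 rose (0.18, adjusted p = 0.0375), while the lamin B receptor Lbr (-0.23, adjusted p = 0.0238) and Tor1aip1 (-0.32, adjusted p = 0.0346) fell. Of 22 filamins and filamin C partners 3 rose and 3 fell (median -0.01), close to the share among all genes. Xirp2, an actin-binding protein of the intercalated disc, rose (7858 ± 3573 CPM in TAC, 2216 ± 134 in sham, log2 fold change 1.83, adjusted p = 0.00402), as did Synpo2l (1.23, adjusted p = 0.0160) and the small heat shock protein Hspb8 (0.44, adjusted p = 0.00849), and the titin cap Tcap fell (-0.77, adjusted p = 0.0102). No gene of these 4 lists was called in either inhibitor group against TAC or between the inhibitor groups.

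**Figure D5:**
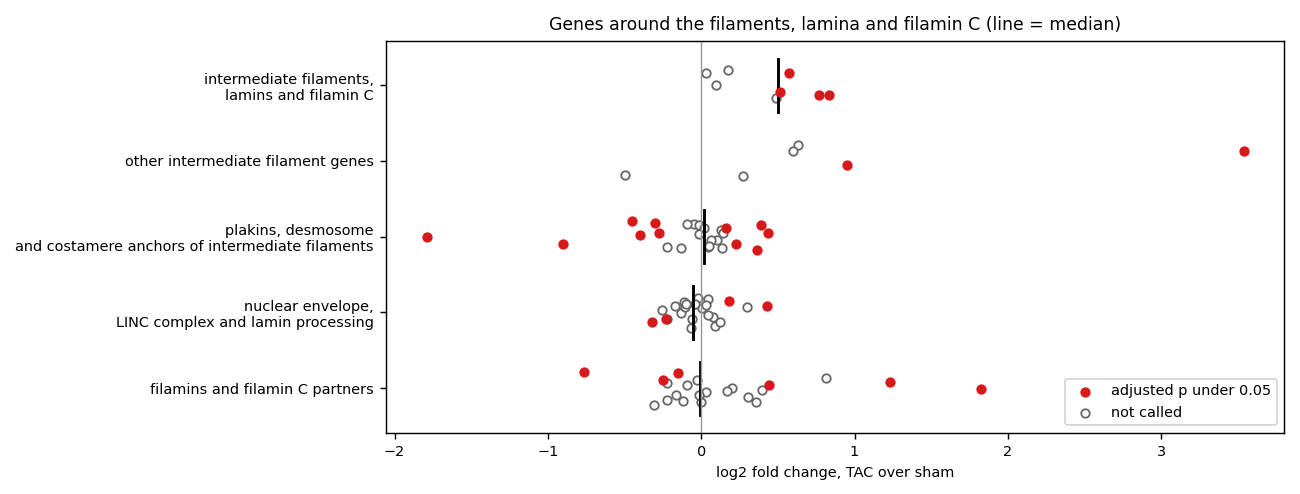
Log2 fold change in TAC over sham (x axis) of the 8 genes and of the tested genes of 4 surrounding lists (points, filled where adjusted p was under 0.05), with the median (line) of the 8 genes and of 3 of the lists. Medians are 0.50 for the 8 genes and between -0.05 and 0.02 for these lists; most tested genes of the list of other intermediate filament genes passed the filter through the constricted groups, and it has no line.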

How the data were processed

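RNA was measured in 21 left ventricular libraries. The authors deposited RSEM expected counts per gene symbol in 1 table, not scaled between libraries; 19.0% of the values had decimals, and 27 rows carry a date where a symbol belongs. The submitters' processing notes name RSEM 1.3.0, HISAT2 2.0.5, CASAVA 1.8.4, DESeq2 1.18.1 and mm10 without saying what each was used for; the sources used here do not give the annotation.

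Expected counts were rounded and low genes removed (filterByExpr by group), which left 14135. With edgeR 4.0.16 in R 4.3.3, a robust quasi-likelihood model of group means after TMM scaling was fitted to the 21 libraries together; the script was checked on simulated data. Alternatives used DESeq2 1.42.0 (on every gene with a count), other scalings, no filter, the 2 groups alone, ear tag series or replicate number as a term, and each library left out. Replicate numbers did not pair the samples (correlations of deviations -0.225 to 0.564). Depth was 22.7 to 41.0 M counts, and intervals are 95%. Coordinates and exon lengths came from GENCODE M21 (GRCm38, the assembly of mm10), promoters from RefSeq GRCm38.p6. Log2 CPM used a prior count of 2.

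All 8 genes were named in each comparison, with up to 4 called genes per surrounding list by lowest adjusted p and the 3 genes most correlated with each member, leaving out predicted-gene symbols. A gene that this rule names is not reported here. Members, lists and tests were chosen with earlier results of these data known.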

Additional observations from a re-analysis of the deposited data

Results flagged for a closer look

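Among 32 combinations of gene and group, 4 had a library far from the others of its group by Dixon's criterion, and chance flags about 1 in 20 groups. TAC+PDE9A-I library 3 stood above the other 5 libraries of its group for Des (3713 CPM), Synm (34.8 CPM) and Flnc (1546 CPM). TAC+PDE5A-I library 1 stood below the other 4 for Lmnb2 (7.997 CPM). The causes were not tested.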

How the results depend on the processing

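The calls of Des, Synm and Lmna in TAC against sham held under every alternative run, and members called ranged from 3 to 5 with single libraries left out. In TAC+PDE5A-I over sham, 5 members were called with the 2 groups alone, where 3440 of 13881 genes tested were called. With ear tag series as a term 0 members were called, where 276 of 14135 genes were. In TAC+PDE9A-I over sham, 1 (Synm) was called with DESeq2, RLE, upper-quartile scaling and the replicate block, and 0 to 1 without single libraries. With the replicate block, which does not pair these samples, 4 members were called in TAC over sham, 1 in TAC+PDE5A-I over sham and 0 in the comparisons among constricted groups.

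Signs reversed only for values that were not called. With ear tag series as a term, Synm was -0.058 and Flnc -0.0070 in TAC+PDE5A-I over TAC, and Nes -0.059 and Lmnb2 0.024 in TAC+PDE9A-I over sham; Nes was 0.0081 in TAC+PDE5A-I over TAC with the replicate block. In TAC+PDE9A-I over sham, Lmnb2 was 0.000423 with RLE, 0.016 with upper-quartile scaling and 0.0076 with the 2 groups alone. Without TAC+PDE9A-I libraries 1 and 4, an alternative chosen after seeing the data, Lmnb1 was -0.16 over TAC and -0.059 over sham, Des 0.062 over TAC+PDE5A-I, and Lmnb2 0.020 and Flnc 0.084 over sham. With single libraries left out, Lmnb2 ranged from -0.043 to 0.11 in TAC over sham, from -0.11 to 0.047 in TAC+PDE9A-I over TAC and from -0.070 to 0.046 in TAC+PDE9A-I over sham. Likewise Synm ranged from -0.081 to 0.099, Nes from -0.15 to 0.14 and Flnc from -0.060 to 0.23 in TAC+PDE5A-I over TAC, Lmnb1 from -0.087 to 0.090 in TAC+PDE9A-I over TAC, Des from -0.25 to 0.020 in TAC+PDE9A-I over TAC+PDE5A-I, and Flnc from -0.13 to 0.025 in TAC+PDE9A-I over sham. The causes were not tested.

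Over all genes, calls in TAC+PDE9A-I over sham numbered 540, against 1529 with DESeq2, 329 with edgeR without the filter, 17 with the 2 groups alone, 6 with ear tag series and 2241 with the replicate block. In TAC+PDE5A-I over sham they numbered 2066, against 3440 with the 2 groups alone and 276 with ear tag series. DESeq2 ran on all 18888 genes with a count and its own filter, so that tool and gene set both differ. It called 29 genes in TAC+PDE9A-I over TAC, 9 in TAC+PDE5A-I over TAC and 34 between the inhibitor groups, against 1, 2 and 1 by edgeR over 14135 genes and 0, 2 and 1 by edgeR over 18888. Leaving out single libraries moved edgeR's calls to between 1781 and 4440 in TAC over sham (3558 with all), 580 and 2274 in TAC+PDE5A-I over sham, and 21 and 1814 in TAC+PDE9A-I over sham.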
